A study of Homo sapiens with 8 samples.

Results

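The B7 family ligands are 7 cell-surface proteins of the immunoglobulin superfamily: VTCN1 (also called B7-H4), CD274 (PD-L1), PDCD1LG2 (PD-L2), CD276 (B7-H3), ICOSLG, CD80 and CD86. Members were taken as the rows of the deposited gene-level table whose platform annotation holds exactly 1 gene symbol and that symbol is a member. Each of the 7 genes had 1 such row, so 7 of 18495 rows are described. The set was chosen by the difference of VTCN1 in intensity between the 2 groups of arrays compared here, so the values of VTCN1 are given as a description without a test. The other 6 came in by family name, with earlier results of these data known.

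PNT2 is an immortalized human cell line of prostatic epithelium, and the series compared these cells after transfection with small interfering RNA (siRNA). In 4 samples the siRNAs were against ESRP1 and ESRP2, the epithelial RNA-binding proteins that steer alternative splicing (siESRP). In 4 control samples the siRNA was against green fluorescent protein (siGFP), a gene that human cells lack. Total RNA was hybridized to Affymetrix human exon arrays, 1 array per sample. Nothing in the labels states that the 4 samples of a group are separate cultures, so the spread behind each p-value may be technical. The sample titles name no cells other than PNT2, and 1 value per gene does not tell splice forms apart.

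B7 ligands on a presenting cell bind receptors of the CD28 family on T cells. CD80 and CD86 bind CD28, which stimulates the T cell, and CTLA4, which restrains it. CD274 and PDCD1LG2 bind the inhibitory receptor PD-1, ICOSLG binds the costimulatory receptor ICOS, and the receptors of VTCN1 and CD276 are less well established. CD80 and CD86 are best known from antigen-presenting leukocytes, whereas CD274, CD276 and VTCN1 are also found on epithelial and carcinoma cells.

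Deposited intensities had array medians between 233 and 286 and were quantile normalized between arrays. Levels below are these normalized linear intensities, with array values in the order of replicates 1 to 4. Differences are siESRP minus siGFP on the log2(value + 1) scale, after values below 0 were set to 0. The test was limma's, adjusted by Benjamini-Hochberg over the whole table, and an adjusted p under 0.05 was needed for a call. The ESRP1 row was 2232, 2527, 2617 and 2379 in siGFP and 568, 499, 660 and 599 in siESRP, a reduction of 76.2%. The row shared by ESRP2 and NFATC3 dropped by 72.1%, from 531 ± 33.4 to 148 ± 27.4 (SD, n = 4 each). All 14 measured epithelial markers of 16 listed had means above 100 in both groups.

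Within the family the ligands moved in different directions. VTCN1 was 4.71-fold higher in siESRP, from a siGFP mean of 50.2 that is close to background. CD274 was 1.18-fold higher, a small change that was called under some settings only. PDCD1LG2 fell 1.90-fold and ICOSLG fell 1.44-fold. CD276, CD80 and CD86 did not pass the test. Of the 6 ligands other than VTCN1, 1 was called higher, where 10.9% of all rows were, and 2 were called lower, where 9.31% of all rows were. For CD80 and CD86 both group means were under 50, near background, so their levels are given in place of a difference. All 7 rows were in the fit, since no filter on low values was used, but VTCN1 is described without a test. In arrays of bulk RNA, fewer cells with a transcript and less of it per cell cannot be told apart.

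**Figure D1:**
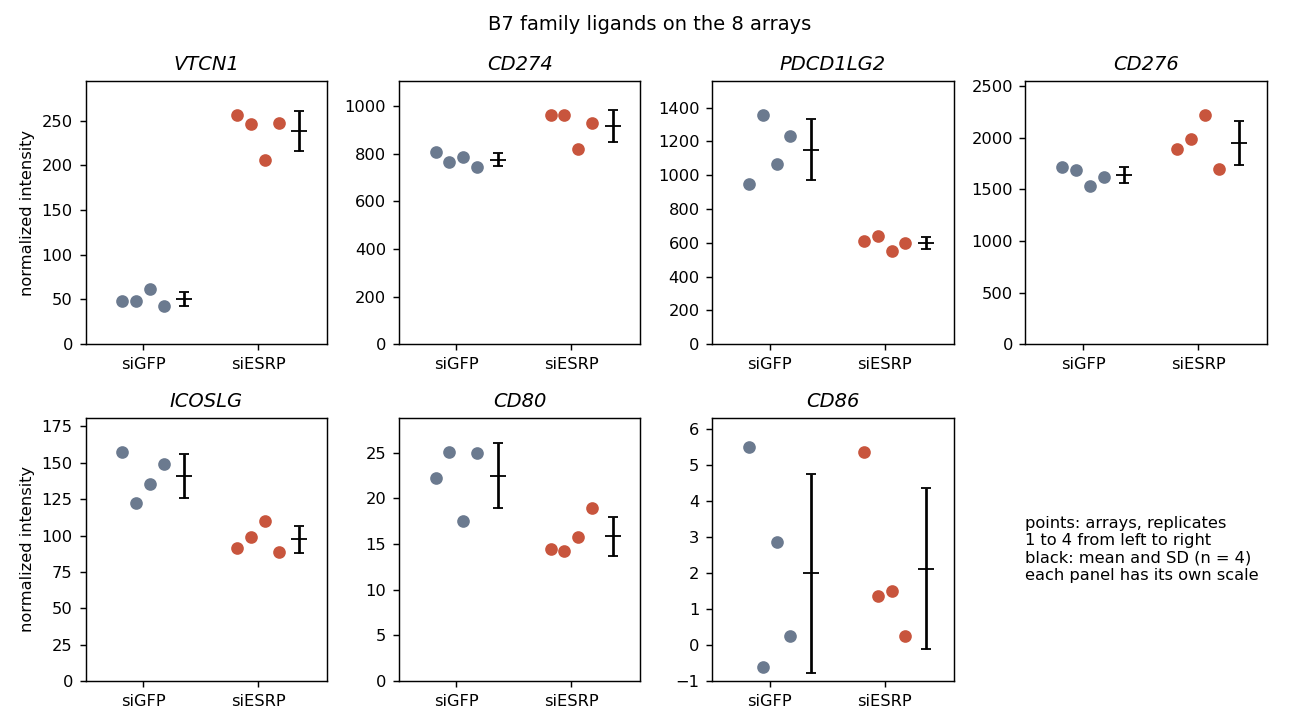
Normalized linear intensity of each B7 family ligand on the 8 arrays, with 1 panel per gene and its own axis; points are arrays and black marks are the mean and SD of 4. The siESRP points of VTCN1 lie between 206 and 256 and its siGFP points between 42.5 and 61.5, while the points of PDCD1LG2 and ICOSLG lie lower in siESRP than in siGFP without overlap.

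VTCN1 encodes an inhibitory ligand that dampens T-cell activation. Its row read 48.4, 48.5, 61.5 and 42.5 in siGFP and 256, 246, 206 and 247 in siESRP. All 4 siESRP arrays were far above all 4 siGFP arrays, and replicate 3 was the lowest of siESRP and the highest of siGFP. The means were 50.2 ± 8.03 and 239 ± 22.3 (SD, n = 4 each), and the log2 difference was 2.24 ± 0.12 (SE). Only 31 of 18495 rows had a higher log2 difference. Among 12077 bright rows (a higher group mean of at least 100 and all 8 values above 0) 11 did. On the deposited scale the row was 59, 48, 56 and 49 in siGFP and 260, 232, 218 and 255 in siESRP. The normalized siGFP mean was barely above 50, the level under which means are treated here as near background. The size of the fold is therefore uncertain. With 16 in place of 1 added before the logarithm, the log2 difference was 1.95.

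CD274 encodes the PD-1 ligand that interferon induces on many cell types. Its row read 808, 764, 784 and 744 in siGFP and 960, 960, 819 and 928 in siESRP. The groups did not overlap, but siESRP replicate 3 lay just above the highest siGFP array. The means were 775 ± 27.4 and 917 ± 67.2 (SD, n = 4 each), with a log2 difference of 0.24 ± 0.06 (SE; 95% interval 0.09 to 0.39; limma adjusted p = 0.0370). The call ended without any one of the 4 siGFP arrays or siESRP replicate 1, 2 or 4 (limma adjusted p between 0.0563 and 0.0979). It also ended on the deposited scale (0.380) and with arrays scaled to a common median (0.249), and the difference stayed positive in all of these.

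PDCD1LG2 encodes the other PD-1 ligand. Its row read 945, 1354, 1067 and 1234 in siGFP and 610, 638, 551 and 601 in siESRP. The siGFP arrays were spread widely, yet the lowest of them was well above every siESRP array. The means were 1150 ± 180 and 600 ± 36.1 (SD, n = 4 each), and the log2 difference was −0.93 ± 0.12 (SE; 95% interval −1.20 to −0.65; limma adjusted p = 0.00219). A lower difference was found in 330 of all rows, or 1.78% of them. The call held under every alternative run, with log2 differences between −1.01 and −0.84.

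CD274 and PDCD1LG2 are neighbours on chromosome 9, with no other protein-coding gene between them in the RefSeq gene table. The ratio of PDCD1LG2 to CD274 on the same array does not change when all values of the array are multiplied by a common factor. Quantile normalization is not such a scaling and can change the ratio. From the deposited intensities it was 1.17, 1.76, 1.37 and 1.64 in siGFP and 0.629, 0.667, 0.680 and 0.645 in siESRP. Every siESRP array lay below every siGFP array, and the siESRP arrays were close together. The mean log2 ratio was 0.55 ± 0.26 in siGFP and −0.61 ± 0.05 in siESRP (SD, n = 4 each), a shift of −1.16. This ratio was chosen after both genes were seen to differ in opposite directions, so it is a description and no test is given. It does not compare the abundance of the transcripts, since the probes of different genes differ in brightness.

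**Figure D2:**
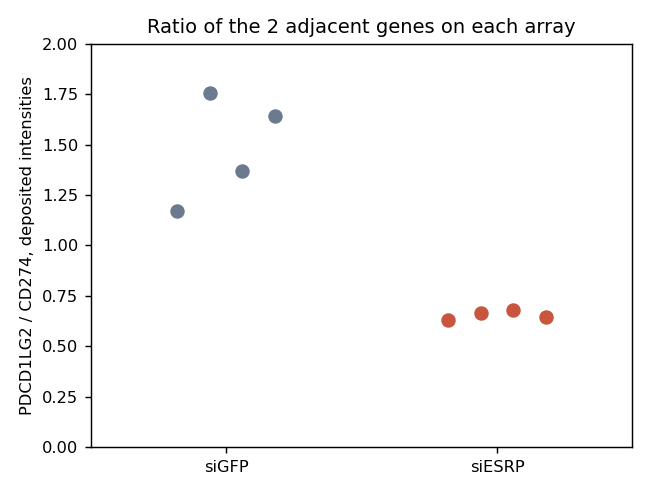
Ratio of the deposited linear intensities of PDCD1LG2 and CD274 on each array; points are replicates 1 to 4 from left to right. The siGFP arrays lie between 1.17 and 1.76 and the siESRP arrays between 0.629 and 0.680.

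CD276 is a ligand reported both to stimulate and to inhibit T cells. Its row read 1714, 1687, 1537 and 1623 in siGFP and 1894, 1988, 2217 and 1701 in siESRP. The groups overlapped, because siESRP replicate 4 lay below siGFP replicate 1. The means were 1640 ± 78.4 and 1950 ± 215 (SD, n = 4 each), and the log2 difference of 0.24 ± 0.09 (SE; 95% interval 0.04 to 0.45) did not pass (limma adjusted p = 0.0911). Without siESRP replicate 4 it passed, at 0.30 (limma adjusted p = 0.0383).

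ICOSLG, the ligand of ICOS, read 157, 122, 135 and 149 in siGFP and 91.5, 99.2, 110 and 88.9 in siESRP. The groups did not overlap, and siESRP replicate 3 was the nearest to the controls. The means were 141 ± 15.4 and 97.3 ± 9.39 (SD, n = 4 each), with a log2 difference of −0.53 ± 0.10 (SE; 95% interval −0.77 to −0.29; limma adjusted p = 0.0111). The call ended on the deposited scale (log2 difference −0.61, limma adjusted p = 0.0943), where siESRP replicate 3 read 128 and overlapped the controls, and with median scaling (−0.63, 0.0539).

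CD80 and CD86, the ligands shared by CD28 and CTLA4, were near background. CD80 read 22.3, 25.1, 17.5 and 25 in siGFP and 14.4, 14.3, 15.8 and 18.9 in siESRP. The groups overlapped through siGFP replicate 3 and siESRP replicate 4. The means of 22.5 ± 3.55 and 15.8 ± 2.14 (SD, n = 4 each) did not pass the test (limma adjusted p = 0.0520), but CD80 passed it without siGFP replicate 3 (0.0184) or siESRP replicate 4 (0.0416). CD86 ran from −0.63 to 5.50 in siGFP and from 0.25 to 5.38 in siESRP, so no level above background was measured, and it was not called (limma adjusted p = 0.935).

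**Figure D3:**
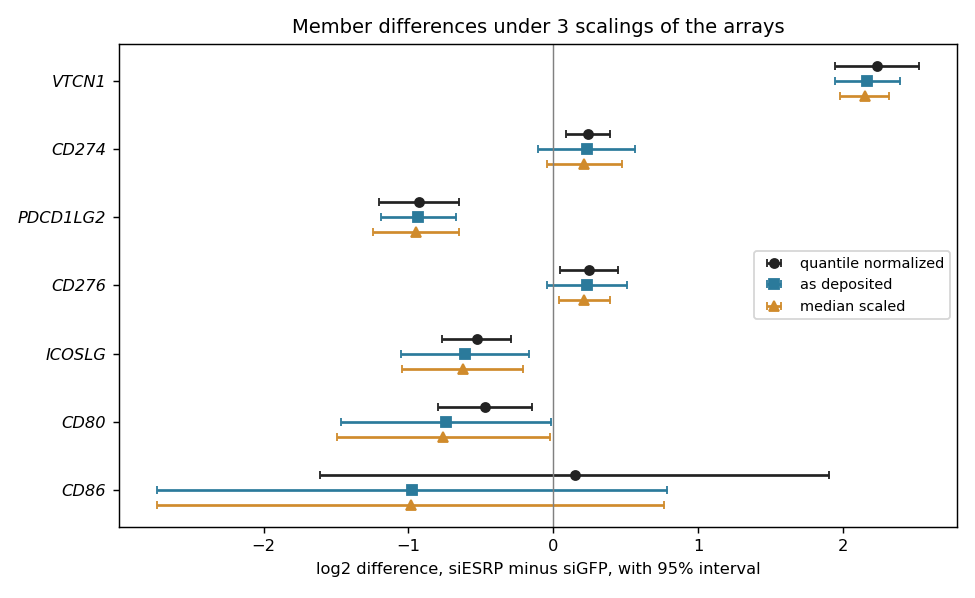
Log2 difference, siESRP minus siGFP, of the 7 ligands with 95% intervals, after quantile normalization (circles), as deposited (squares) and after scaling to a common median (triangles). PDCD1LG2 stays below −0.65 over the whole of each interval, while the intervals of CD274 cross 0 on the deposited and median scales. The points of VTCN1 lie between 2.15 and 2.24. Its intervals are no test, since VTCN1 was chosen by this difference. The points of CD80 and CD86 rest on values near background, and the intervals of CD86 span 0 throughout.

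Promoter sequences are shown for VTCN1, the ligand with the largest difference, and for CD274, the ligand whose listed regulators are described further on. RefSeq windows on GRCh38.p14 run from 250 bases before to 50 after an annotated start, and 6 of the 7 ligands had at least 1, in 8 windows. Sequences read 5′ to 3′ on the gene's strand. Capitals mark matches on either strand to any of 4 short motifs, which were chosen after the sequences were seen. The core of the interferon-stimulated response element was searched as a repeat of GAAA with any 2 bases between. The element of the stress-responsive factor AP-1 was searched as TGAGTCA. The GC box, the usual element of Sp1 factors, was searched as GGGCGG. The TATA box of core promoters was searched as TATAAA. The VTCN1 window is chr1:117210878-117211177 on the minus strand and that of CD274 is chr9:5450292-5450591 on the plus strand.
VTCN1: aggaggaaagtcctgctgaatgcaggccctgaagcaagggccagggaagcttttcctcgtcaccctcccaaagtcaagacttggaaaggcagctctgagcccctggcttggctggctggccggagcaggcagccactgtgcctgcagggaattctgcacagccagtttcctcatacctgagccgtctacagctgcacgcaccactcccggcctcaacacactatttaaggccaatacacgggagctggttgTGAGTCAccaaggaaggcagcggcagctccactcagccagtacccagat
CD274: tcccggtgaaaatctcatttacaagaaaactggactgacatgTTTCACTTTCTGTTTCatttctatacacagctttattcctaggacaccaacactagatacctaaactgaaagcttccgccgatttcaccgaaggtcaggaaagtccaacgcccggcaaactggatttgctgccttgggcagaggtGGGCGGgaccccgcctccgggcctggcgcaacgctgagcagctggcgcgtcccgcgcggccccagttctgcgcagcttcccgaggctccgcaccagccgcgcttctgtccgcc

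The CD274 window held 2 overlapping matches to the interferon core, which 3.57% of 35116 promoter windows of the same length held at least once, and 1 GC box, held by 15786 of the windows. No interferon core lay in the windows of the other 5 ligands with a window. PDCD1LG2 had no window, so it was not searched. The VTCN1 window held 1 AP-1 match, just past the start and held by 4.95% of windows, and no GC box. The GC boxes of the family were otherwise in the windows of CD276 and ICOSLG, whose G and C content was 76.0% or more against a median of 58.7% over all windows and 58.7% for VTCN1. TATAAA, held by 11.5% of windows, was in none of the 8. These are matches of letters and do not show that a factor binds.

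Among listed regulators of CD274, 20 of 23 were measured, with 4 called higher and 5 lower, where 20.2% of all rows were called in either direction. The median log2 difference of the list was −0.03 and that of all rows −0.02. The 2 relatives CMTM6 and CMTM4, membrane proteins that keep PD-L1 protein from degradation, both rose. CMTM4 rose 1.77-fold, from 563, 560, 499 and 538 in siGFP to 959, 1114, 909 and 862 in siESRP (limma adjusted p = 0.00113). CMTM6 rose 1.42-fold, from a mean of 1579 to 2240 (limma adjusted p = 0.00674). IFNGR2, a chain of the interferon-gamma receptor, rose 1.47-fold (limma adjusted p = 0.0450) with siGFP arrays spread from 1205 to 1919. Its call ended in 9 of 16 alternatives, among them leaving out any one array except siGFP replicate 2 (limma adjusted p between 0.0619 and 0.105). STAT3, a transcription factor of cytokine signalling, rose 1.16-fold. The calls of STAT3 and CMTM6 ended on the deposited scale (0.252 and 0.150) and with median scaling (0.0540 and 0.0537).

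SPOP, the adaptor of a ubiquitin ligase that targets PD-L1, fell 1.26-fold from 2329 to 1845 (limma adjusted p = 0.00225). COPS5, a COP9 signalosome subunit reported to remove ubiquitin from PD-L1, fell 1.39-fold from 1242 to 888. The NF-kappaB subunits NFKB1 and RELA fell 1.28-fold and 1.29-fold, and PTPN2, a phosphatase that limits JAK and STAT signalling, fell 1.33-fold. The RELA call ended in 8 of 16 alternatives, among them without siGFP replicate 1, 2 or 4 or siESRP replicate 2 or 3 (limma adjusted p between 0.0521 and 0.0671). That of PTPN2 ended in 6 of 16, among them without siGFP replicate 2 or 4 or siESRP replicate 1 or 4 (0.0535 to 0.0590). SPOP, COPS5 and NFKB1 lost theirs on the deposited scale alone (0.0990, 0.0993 and 0.145). IRF1, the factor through which interferon-gamma induces CD274, was 925 ± 44.4 in siGFP and 893 ± 75.8 in siESRP (SD, n = 4 each), a log2 difference of −0.05 with a 95% interval from −0.22 to 0.11 (limma adjusted p = 0.659). On the deposited scale 2 of the list were called higher and 1 lower, and with median scaling 2 higher. Without siGFP replicate 2, 3 were called lower, and the same number without siGFP replicate 4.

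The listed receptors, of these ligands or of other B7-related ligands, are T-cell and NK-cell genes. Of 6 listed, 5 were measured, all but PDCD1, the gene of PD-1. Limma called 0 of the 5, where 20.2% of all rows were called, and 0 had an unadjusted limma p under 0.05. Both means were under 50 for 4 of them. CTLA4 had means of 43.7 and 38.7 (limma adjusted p = 0.501), but was called lower as deposited (0.0168) and with median scaling (0.0406). TMIGD2, the receptor of the B7-related ligand HHLA2, had means of 143 ± 29.2 and 132 ± 57.4 (SD, n = 4 each).

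Of 16 other B7-related and butyrophilin genes, 12 were measured and 0 were called by limma, where 20.2% of all rows were called. At an unadjusted limma p under 0.05, 3 were higher and 2 lower. Butyrophilins share the immunoglobulin fold of the B7 ligands, and some present signals to gamma-delta T cells. BTN2A2 had means of 1039 in siGFP and 1090 in siESRP (log2 difference 0.07, 95% interval −0.09 to 0.24). BTN3A3 read 528, 515, 525 and 468 in siGFP and 599, 537, 683 and 620 in siESRP. Its groups did not overlap, and its log2 difference of 0.26 (95% interval 0.06 to 0.45) did not pass (limma adjusted p = 0.0684), although it did without siESRP replicate 2 (0.0311). BTN3A2 likewise did not overlap, at 0.45 (95% interval 0.06 to 0.83; limma adjusted p = 0.102). Values did not overlap between the groups in 24.6% of all rows. VSIR, an inhibitory ligand and receptor also called VISTA, was 275 ± 21.7 and 311 ± 6.53 (SD, n = 4 each; limma adjusted p = 0.0812), and it passed without siGFP replicate 1 (0.0145). HHLA2 was 67.8 and 59.1. The median log2 difference of the list was −0.19 and that of all rows −0.02, and 4 of the 12 genes had both means under 50.

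Of 28 listed ligands of other T-cell and NK-cell receptors, 22 were measured, 6 were called higher and 1 lower, with a median log2 difference of 0.04. The called share was 31.8%, where 10.9% of all rows were called higher and 9.31% lower. MICB, a stress-induced ligand of the activating receptor NKG2D, rose 2.20-fold, from 700, 927, 738 and 711 in siGFP to 1516, 1656, 1815 and 1766 in siESRP (limma adjusted p = 0.000666). TNFSF15, a cytokine of the tumour necrosis factor family, rose 2.15-fold from 274 ± 35.7 to 592 ± 84.6 (SD, n = 4 each; limma adjusted p = 0.00201). NECTIN4, an adhesion molecule that binds the inhibitory receptor TIGIT, rose 1.44-fold (limma adjusted p = 0.00752), and NECTIN2, a ligand of TIGIT and PVRIG, rose 1.27-fold. CD40, a costimulatory receptor, rose 1.44-fold, and TNFRSF14, the ligand of BTLA, rose from 47.6 to 78.9. The NECTIN2 call ended without siGFP replicate 1 (limma adjusted p = 0.0509) or 3 (0.0516) and on the deposited scale (0.0838). That of CD40 ended on the deposited scale (0.0559). With replicate number as a block, CD40 (0.0591) and NECTIN4 (0.0605) were not called. NECTIN2, CD40 and TNFRSF14 are named to complete the count.

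LGALS9, which encodes galectin-9, a ligand reported for TIM-3, was the gene of that list that fell. It read 762, 618, 602 and 661 in siGFP and 395, 419, 345 and 369 in siESRP, 1.73-fold lower without overlap (log2 difference −0.79 ± 0.09 SE, limma adjusted p = 0.00182). Without siESRP replicate 3, 3 genes of the list were called lower. On the deposited scale 3 were called higher, and NECTIN4 missed the threshold (0.0527).

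**Figure D4:**
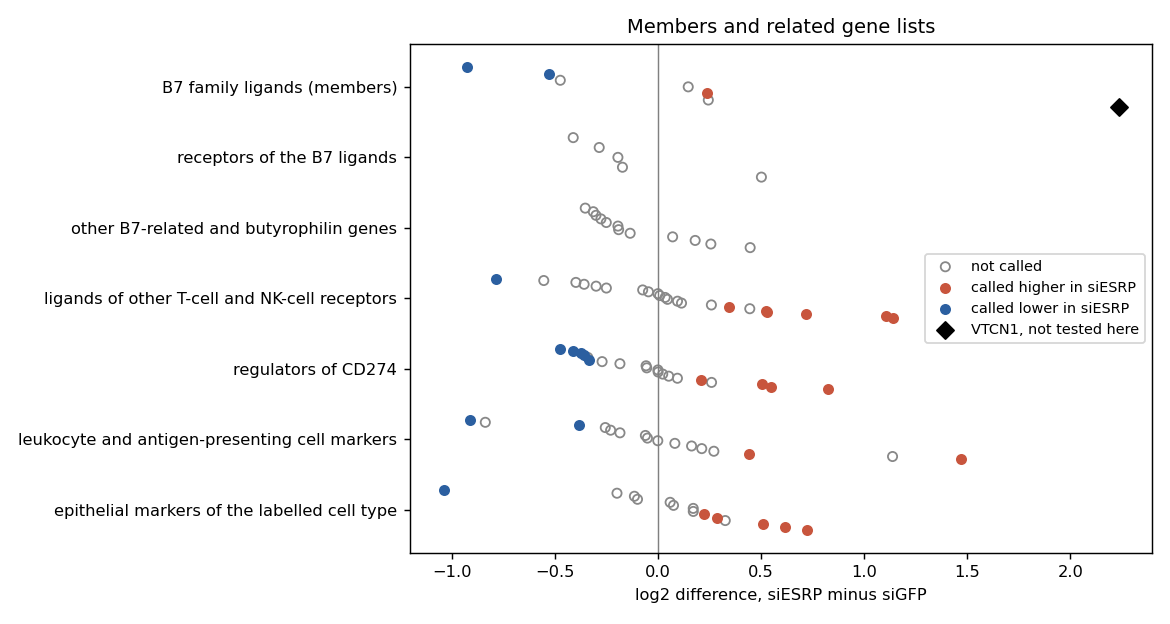
Log2 difference, siESRP minus siGFP, of the 7 ligands and of every measured gene of the related lists; filled points were called by limma at an adjusted p under 0.05 and open points were not. VTCN1, drawn as a diamond, stands at 2.24, beyond every other gene of these lists, but it was chosen by this difference. The ligands other than VTCN1 lie between −0.93 and 0.24.

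Markers of leukocytes and antigen-presenting cells, which carry CD80 and CD86, were measured for 16 of 19 listed genes. Of the 16, 7 had both means under 50, among them PTPRC, CD3E and LCP1, picked after their values were seen, with means under 25. LAMP3, CD68, CSF1R and CD83, described below, had means above 50 in both groups, as did other markers of the list. The level summed over the list ran from 2571 to 2754 in siGFP and from 2920 to 3187 in siESRP. In this list 2 genes rose and 2 fell, 4 of 16 where 20.2% of all rows were called. Without siESRP replicate 3, 4 were called lower, and 1 was as deposited. LAMP3, a lysosomal membrane protein of mature dendritic cells that other cells also express, rose 2.77-fold from 154 to 429, and CD68, a lysosomal protein, rose 1.36-fold from 551 to 747. CSF1R, the receptor of macrophage growth factor, fell 1.88-fold and CD83 fell 1.31-fold from 693 to 530. Whether these markers have a part in the ligands' differences was not tested.

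Among the 14 measured epithelial markers 5 rose and 1 fell, a share of 42.9% where 20.2% of all rows were called. The keratin KRT14 fell 2.06-fold, from 981, 596, 715 and 766 in siGFP to 339, 337, 426 and 367 in siESRP (limma adjusted p = 0.00465). All 4 siESRP arrays lay below the lowest siGFP array. CDH3, which encodes P-cadherin, rose 1.65-fold from 1620 to 2656 (limma adjusted p = 0.00360), and the E-cadherin gene CDH1 went up 1.42-fold, with means of 2137 and 3042 (limma adjusted p = 0.00182). The keratins KRT15, KRT18 and KRT19 rose 1.53-fold, 1.22-fold and 1.17-fold. On the deposited scale 3 were called higher, and KRT18 (0.107) and KRT19 (0.182) were not. EPCAM (3386 in siGFP and 3120 in siESRP) and KRT8 (6690 and 6964) were not called. The level summed over the list ran from 31540 to 32680 in siGFP and from 35580 to 36570 in siESRP, and its part in the ligands' differences was not tested.

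The genes next to the ligands in the RefSeq gene table gave a further readout. Of 24 genes within 2 places of a ligand, 19 had a row, 3 rose and 1 fell, a share of 21.1% that is near the 20.2% of all rows. VTCN1 lies between TRIM45 and MAN1A2. TRIM45, a ubiquitin ligase, was 148 ± 11.5 and 151 ± 22.6 (SD, n = 4 each; log2 difference 0.03, limma adjusted p = 0.925). MAN1A2, a mannosidase of the Golgi, rose 1.56-fold from 609 to 951 (limma adjusted p = 0.00955). One place further out, TTF2, a transcription termination factor, rose 1.53-fold from 749 to 1145 (limma adjusted p = 0.00219), and TENT5C had means of 47.9 and 35.7 and was not called. On chromosome 9, PLGRKT on the side of CD274 (log2 difference 0.15, limma adjusted p = 0.490) and RIC1 on the side of PDCD1LG2 (−0.16, 0.131) were not called, although RIC1 was with median scaling (−0.19, 0.0372). GATD3, beside ICOSLG, fell 1.28-fold, and SLC15A2, near CD86, rose from 39.0 to 54.0, a call that ended as deposited (0.297) and with median scaling (0.222). The GATD3 call also ended as deposited (0.0554). The other 11 measured neighbours were not called: NPTN and TBC1D21 near CD276, PWP2, DNMT3L and AIRE near ICOSLG, POGLUT1, TIMMDC1 and PLA1A near CD80, and ILDR1, CASR and CSTA near CD86. Of these, PLA1A, with means of 53.3 and 48.1, was called lower without siESRP replicate 3 (limma adjusted p = 0.0325).

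The rows whose profile over the 8 arrays was nearest to that of VTCN1 were sought among 9645 bright rows with 1 symbol. Likeness was the root mean square difference between log2 profiles, each taken relative to its own siGFP mean. The nearest was CYFIP2, a subunit of the actin-regulating WAVE complex, with a root mean square difference of 0.10 on the log2 scale. STAT6, the transcription factor of interleukin-4 signalling, STEAP4, a metalloreductase, FAP, a membrane protease, and TNFRSF10C, a decoy receptor for the death ligand TRAIL, followed with 0.19, 0.20, 0.20 and 0.21. CYFIP2 went from a mean of 82.0 to 388 and TNFRSF10C from 58.8 to 232. Since these rows were picked for a like difference between the same groups, no test is given.

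**Figure D5:**
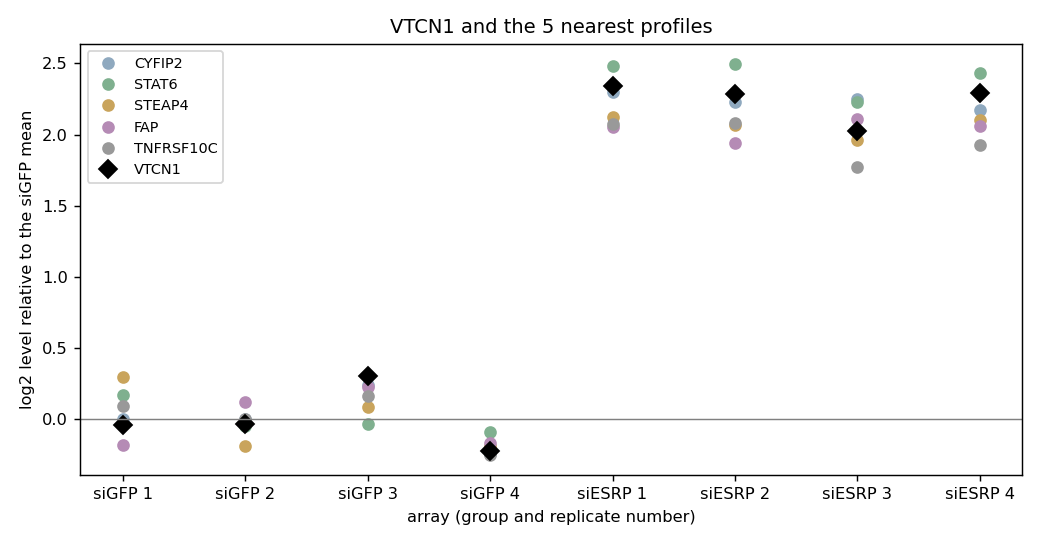
Log2 level of VTCN1 (diamonds) and of the 5 rows with the nearest profile (circles) on each of the 8 arrays, relative to the mean of the 4 siGFP arrays. The siGFP points lie around 0, and VTCN1 is lowest among the siESRP arrays in replicate 3, where its intensity was 206.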

How the data were processed

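The authors deposited 1 table of linear intensity values, with 18495 rows (transcript clusters) and 8 arrays; how background was corrected, probes summarized and arrays scaled is not given in the sources used here. Groups came from the sample titles. Intensities were quantile normalized, values below 0 (2.70% to 4.02% of rows per array) were set to 0, and log2(value + 1) was fitted with limma 3.58.1 in R 4.3.3 (lmFit and eBayes, all 8 arrays, no covariate, two-sided). Symbols came from GEO's platform annotation, updated through Entrez IDs to the RefSeq table of GRCh38.p14: 14577 rows had 1 symbol (14550 with an ID in that table), 2849 several and 1069 none. Of several rows for a listed gene, the brightest was used. The members, gene lists and tests were chosen with earlier results of these data known. Genes named were the members, up to 4 called genes of each list by smallest p (without any, up to 2 of the brightest), genome neighbours and the 5 nearest profiles; others complete a count or were chosen after their values were seen. The steps were tested on simulated data. Alternatives covered scaling, filter, pseudocount, variance prior, array weights, replicate number, threshold and leaving out each array. The number of arrays limits the precision.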

Additional observations from a re-analysis of the deposited data

Results flagged for a closer look

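Among the named genes, 142 groups of 4 arrays were examined, and 6 of them had a single array whose distance to its nearest neighbour, as a share of the group's range, was above Dixon's 95% critical value; chance gives about 1 in 20, or 7.1. These were TMIGD2 in siESRP (0.879, replicate 3 high), MICB in siGFP (0.833, replicate 2 high), RELA in siGFP (0.849, replicate 3 low), KRT19 in siGFP (0.857, replicate 3 low) and in siESRP (0.917, replicate 1 low) and BTN3A2 in siGFP (0.890, replicate 4 low). None of the 7 ligands was among them.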

How the results depend on the processing

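VTCN1 stayed between 1.95 (pseudocount 16) and 2.36 on the log2 scale under 16 alternatives, and PDCD1LG2, ESRP1 and the ESRP2 row kept their call in all 16. The CD274 call ended in 11 of 16 and that of ICOSLG in 4 of 16. Of the 6 ligands other than VTCN1, 0 were called higher and 1 lower on the deposited scale, with median scaling, at adjusted p under 0.01 and with the replicate block; leaving out 1 array gave 0 to 1 higher and 2 to 3 lower. Over all rows, 2007 were called higher and 1722 lower, against 1045 and 628 as deposited, 1115 and 693 at adjusted p under 0.01, and 946 lower with the replicate block; leaving out 1 array gave 1519 to 2024 higher and 1200 to 1769 lower. With the replicate block, limma adjusted p was 0.101 for CD274, 0.0689 for ICOSLG and 0.0186 for PDCD1LG2. Same-numbered arrays did not deviate together (correlations of 0.21, 0.07, −0.19 and −0.03 over 10971 rows), so the numbers were not taken as pairs in the main fit. Pairs with different numbers ran from −0.35 (siGFP replicate 2 with siESRP replicate 1) to 0.50 (siGFP replicate 3 with siESRP replicate 1). Whether arrays of the 2 groups share a batch under other numbers was not tested. CD86 changed sign as deposited (−0.98), with median scaling (−0.99) and when 1 array was left out (−0.32 to 0.61), as did TRIM45 (−0.0032, −0.02, and −0.059 to 0.12), PWP2 (−0.0081 with median scaling, −0.030 with array weights, and −0.051 to 0.11), POGLUT1 (0.068 with array weights, and −0.13 to 0.080), CASR (−0.14 as deposited, −0.15 with median scaling, −0.046 with array weights, and −0.099 to 0.12) and PTPRC (−0.095 and −0.11 as deposited and with median scaling), all without a call. The median over all rows was −0.02, −0.10 as deposited and −0.11 with median scaling. CD80 and CD86 are absent when the dimmest 25% of rows are left out. Low intensity limits CD80, CD86 and most of the receptors.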
